A study of Homo sapiens with 2 samples.

Results

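The events described here were pairs of 3′ splice sites (3′SS, or acceptors) that lie 1 to 12 bases apart at the start of the same exon, so that splicing to the upstream site adds a few bases to the mRNA. They were taken from the deposited list of alternative 3′SS events by the difference in length between the long and the short form of the exon. Of 2868 alternative 3′SS events, 1062 (37.03%, 95% interval 35.3 to 38.8) met this rule. They stood for 870 distinct acceptor pairs in 799 genes. The same pair can be listed again with another flanking exon or another far end of its exon, up to 5 times. The 5 deposited event lists together held 159490 events. In 718 of the 1062 events (575 pairs, 546 genes) the acceptors were 3 bases apart, and in 344 events (295 pairs, 287 genes) they were 1, 2 or 4 to 12 bases apart. These are called 3-base events and other tandem events below. The remaining 1806 alternative 3′SS events, over 12 bases apart, are the comparison set.

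The study sequenced polyA+ RNA of HEK293T cells, a human embryonic kidney line that carries the SV40 large T antigen. There was 1 library of untreated control cells and 1 library of cells kept for 6 h in medium with 300 µg/mL amiloride, a potassium-sparing diuretic that has been used to perturb splicing. The event lists number the libraries without naming a condition, so no value of either library is reported and the conditions are not compared. What follows describes the listed events by their position, sequence and annotation. A listed event is one that the authors' event caller built for these libraries. A listing alone does not show that both acceptors were used in these cells.

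The 3′SS is the AG at the end of the intron. U2AF2 binds the pyrimidine tract before it, U2AF1 contacts the AG, and the spliceosome joins the exon just after an AG in the second step of splicing, usually the first one downstream of the branch point. The base before the AG matters for its use, with C and T favoured over A and G strongly disfavoured. Where 2 AGs lie next to each other as NAGNAG, N being any base, either can be joined and the mRNAs differ by a single triplet. In coding sequence this adds or removes an amino acid, or changes a residue as well, without shifting the reading frame.

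Genes that are common textbook examples of tandem acceptors show the arrangement. Each window is 30 bases of GRCh37, written 5′ to 3′ on the gene's strand, and the capitals mark the 2 bases before each acceptor.
BRCA1, 3 bases, chr17:41228623-41228652, minus strand: gttttctcattccatttaaAGcAGtattaa
BRCA1, 3 bases, chr17:41251889-41251918, minus strand: gttctttaccatactgtttAGcAGgaaacc
IGF1R, 3 bases, chr15:99472766-99472795, plus strand: atttcctcctctttgctgcAGcAGgatatg
PAX3, 3 bases, chr2:223160368-223160397, minus strand: tgcccgcctgttctcttaaAGcAGgtgaca
PAX7, 6 bases, chr1:18962713-18962742, plus strand: tgcctttgaatttctgAGgtttAGtgagtt
GNAS, 3 bases, chr20:57478562-57478591, plus strand: cttttcttttcaatcccacTGcAGtgagaa

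Of 8 such genes, 5 had a tandem event in the list. BRCA1, which acts in DNA repair by homologous recombination, had 2 pairs, before exons 13 and 7 of its canonical transcript. At exon 13 the upstream acceptor followed AAG and ended the intron in 18 annotated transcripts against 7 for the downstream CAG. At exon 7 the counts were 23 for the upstream TAG and 6 for the downstream CAG. IGF1R, the receptor for insulin-like growth factor 1, had a CAGCAG before exon 14, with 2 transcripts at the upstream site and 1 at the downstream site. PAX3, a paired-box transcription factor of neural crest and muscle precursors, had 8 and 1 transcripts at its AAGCAG. PAX7, its paralog in muscle stem cells, had acceptors 6 bases apart with 2 and 1 transcripts. GNAS, which encodes the stimulatory G protein alpha subunit, was the exception in sequence. Its upstream acceptor before exon 4 followed TG in place of AG, and was annotated in 18 transcripts against 29 for the CAG downstream. STAT3 was listed with acceptors over 12 bases apart only, and ATN1 and ITGAM had no alternative 3′SS event here.

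The spacing of the events was dominated by 3 bases. The 718 3-base events made up 67.6% (64.7 to 70.4) of the tandem events and 25.03% (23.5 to 26.7) of all alternative 3′SS events. The next most frequent spacings were 5 bases with 78 events, 4 bases with 72, 6 bases with 47, 9 bases with 38 and 12 bases with 35. Over distinct pairs the first 2 of these change places, with 65 pairs at 4 bases and 55 at 5 bases. A spacing of 2 bases had 23 events, 7, 10 and 11 bases had 13, 13 and 18, 8 bases had 6 and 1 base had a single event in DCTN2, a dynactin subunit. The upstream site of the DCTN2 event followed CA in place of AG and was in 0 annotated transcripts, against 19 at the downstream site. Just outside the limit, 13 bases had 11 events, 14 bases had 12 and 15 bases had 49. Alternative 5′ splice sites (5′SS, or donors) from the same libraries did not share this shape. Of 2620 alternative 5′SS events, 415 (15.8%, 14.5 to 17.3) had donors within 12 bases, and a spacing of 4 bases was the most frequent among them (100 events, 24.1%), while 3 bases had 23 events (5.54%, 3.72 to 8.18). The intervals here and below are 95% Wilson intervals for a share and Newcombe intervals for a difference of shares. They cover counting error over listed events, which are not replicates and can share a pair.

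**Figure D1:**
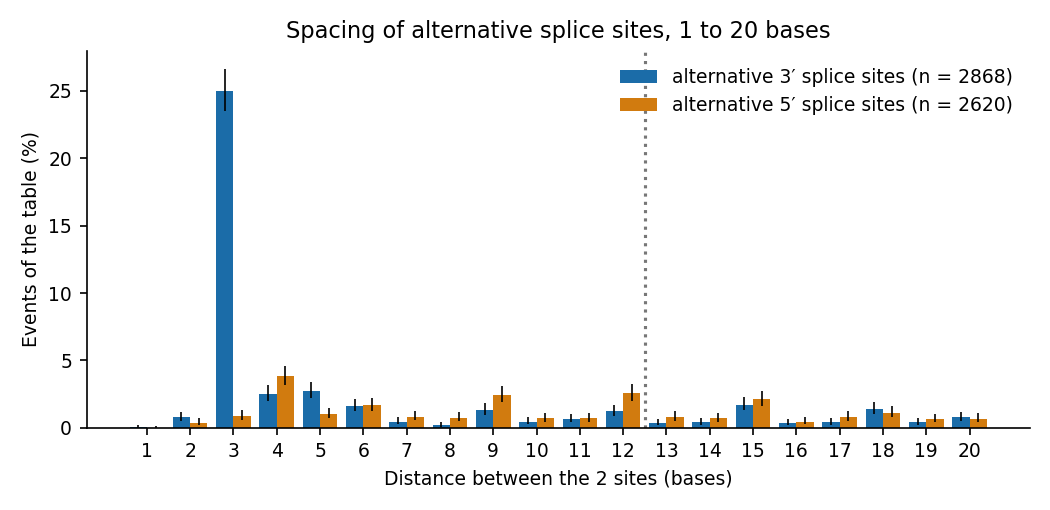
Share of alternative 3′SS events (blue) and of alternative 5′SS events (orange) at each distance between the 2 sites, from 1 to 20 bases, with 95% Wilson intervals as bars and the 12-base limit as a dotted line. The 3′SS events peak at 3 bases with 25.03%, and the 5′SS events at 4 bases with 3.82%.

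The tandem events were spread thinly over genes. Of the 799 genes, 737 had 1 pair, 54 had 2 and 7 had 3. ARFRP1, a small GTPase of the Golgi, had 4 pairs. By their scores, its pairs 2 and 3 bases apart and 1 of those 5 bases apart had acceptors in common. The 7 genes with 3 pairs were CELF1 and CNBP, which encode RNA- and nucleic acid-binding proteins, MBD1, a methyl-CpG-binding protein, MLLT4, the junction protein afadin, and KIAA0430, NAT9 and PPP6R2. The 3 pairs of CNBP were the combinations of 3 acceptors.

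Nearly all acceptors were preceded by AG. Both acceptors had it in 712 of 718 3-base events (99.2%, 98.2 to 99.6) and in 323 of 344 other tandem events (93.9%, 90.8 to 96.0), against 1795 of 1806 events further apart (99.4%). Other tandem events minus events further apart gave a difference of -5.50 points (-8.55 to -3.36). The difference for 3-base events, -0.23 points, had an interval that held 0 (-1.24 to 0.43). In every tandem event that missed AG, the upstream site lacked it.

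Among the 712 3-base events with AG at both sites, the base before each AG was far from even. CAG came first in 386 events, TAG in 215, AAG in 102 and GAG in 9. CAG came second in 531 events, AAG in 118, TAG in 51 and GAG in 12. The most frequent combinations were CAGCAG with 291 events (40.9%), TAGCAG with 161 (22.6%), AAGCAG with 77, CAGAAG with 64, TAGAAG with 33 and CAGTAG with 25. TAGTAG had 19 events, AAGAAG 17, AAGTAG 7 and CAGGAG 6. No event had GAGTAG. Compared with events further apart, the upstream acceptor of a 3-base event less often followed CAG (53.8% against 64.7%, difference -11.0 points, -15.2 to -6.72), while the downstream acceptor did so as often within counting error (74.5% against 74.1%, difference 0.37, -3.48 to 4.06). In other tandem events both shares were lower than in events further apart. CAG came before 43.9% of their upstream acceptors (difference -20.8 points, -26.4 to -15.1) and 64.8% of their downstream acceptors (-9.32, -14.9 to -4.04).

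An example of each of 10 combinations is shown, the event whose weaker acceptor had the highest score among events whose sequence is reported here (the score is explained below).
CECR2, 3 bases, chr22:18027817-18027846, plus strand: cttttttttttttttttgcAGcAGagccgt
PAPOLA, 3 bases, chr14:97022163-97022192, plus strand: ttttaatttttttttttttAGcAGaaacag
RAP1GDS1, 3 bases, chr4:99214535-99214564, plus strand: tgatttttttttttctttaAGcAGataatc
CBLL1, 3 bases, chr7:107393835-107393864, plus strand: gcaatactttttttttctcAGaAGgatttg
ATXN7L1, 3 bases, chr7:105248332-105248361, minus strand: agtttttcttttctttcctAGaAGaacaca
PPP2R5E, 3 bases, chr14:64006402-64006431, minus strand: atgatacttctttctcttcAGtAGggatat
ZNF23, 3 bases, chr16:71483780-71483809, minus strand: tatgttttctgttttttatAGtAGatattc
ZNF227, 3 bases, chr19:44717219-44717248, plus strand: cagatcttttttttttttaAGaAGgattga
TDRD3, 3 bases, chr13:61147726-61147755, plus strand: tttcttcatttctttttaaAGtAGactctt
TNS1, 3 bases, chr2:218678022-218678051, minus strand: atttctttctctttgtcccAGgAGacatga

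CECR2, part of a chromatin remodelling complex, had the strongest CAGCAG by this measure, behind a run of T interrupted only at its end. PAPOLA, the nuclear poly(A) polymerase, had the strongest TAGCAG among events whose sequence is reported here, with 6 annotated transcripts at the TAG and none at the CAG. RAP1GDS1, an exchange factor for small GTPases, had the strongest AAGCAG, with 9 transcripts at each site. CBLL1, an E3 ubiquitin ligase, had 6 transcripts at its CAG and 2 at its AAG. TNS1, the focal adhesion protein tensin, had a CAG followed by a GAG, with 8 transcripts at the CAG and 1 at the GAG.

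The annotated genome gives a base for these counts. Of 181586 acceptors of canonical protein-coding transcripts, 9371 (5.16%) had another AG ending 3 bases downstream, most of them GAG (6149). Of the 1139 followed by CAG, 280 (24.6%, 22.2 to 27.2) were listed as a 3-base event here. For TAG it was 29 of 190 (15.3%, 10.8 to 21.1), for AAG 76 of 1893 (4.01%, 3.22 to 4.996) and for GAG 8 of 6149 (0.130%, 0.0659 to 0.257). Another AG ending 3 bases upstream of the canonical acceptor was rarer, at 1067 acceptors (0.588%). It was listed for 31 of 95 with TAG (32.6%), 72 of 353 with CAG (20.4%), 44 of 232 with AAG (19.0%) and 2 of 387 with GAG (0.517%). GAG had the lowest share on both sides. These shares also count genes that may not be expressed in HEK293T cells.

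To set the acceptors side by side, each was given a score, the summed log2 ratio of its base frequencies at 300290 annotated acceptors to an even base composition, over the last 20 intron bases and the first 3 exon bases. Annotated acceptors scored 8.89 ± 3.92 (SD). In the 712 3-base events with AG at both sites the upstream acceptor scored 8.22 ± 3.31 and the downstream one 7.47 ± 3.21, and the upstream score was higher in 413 events (58.0%). The mean difference was 0.75 ± 2.65. In the 323 other tandem events with AG at both sites the scores were 7.31 ± 3.91 and 5.55 ± 3.55, a mean difference of 1.76 ± 4.44. The 3-base mean difference minus that of other tandem events was -1.01 (-1.53 to -0.49). Downstream acceptors of other tandem events scored 1.32 lower than those of events further apart (mean difference -1.32, -1.74 to -0.90), and those of 3-base events 0.60 higher (0.32 to 0.89). In all tandem events the upstream AG lies inside the score window of the downstream acceptor, so such differences are in part built into the score. With all 718 3-base events counted the mean difference was 0.60 (0.36 to 0.84), and 1.31 (1.10 to 1.53) when the score used intron bases only. With all 344 other tandem events counted, the sites without AG included, the difference was 0.43 and its interval held 0 (-0.35 to 1.20). Over their distinct pairs it was 0.09 (-0.78 to 0.97).

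**Figure D2:**
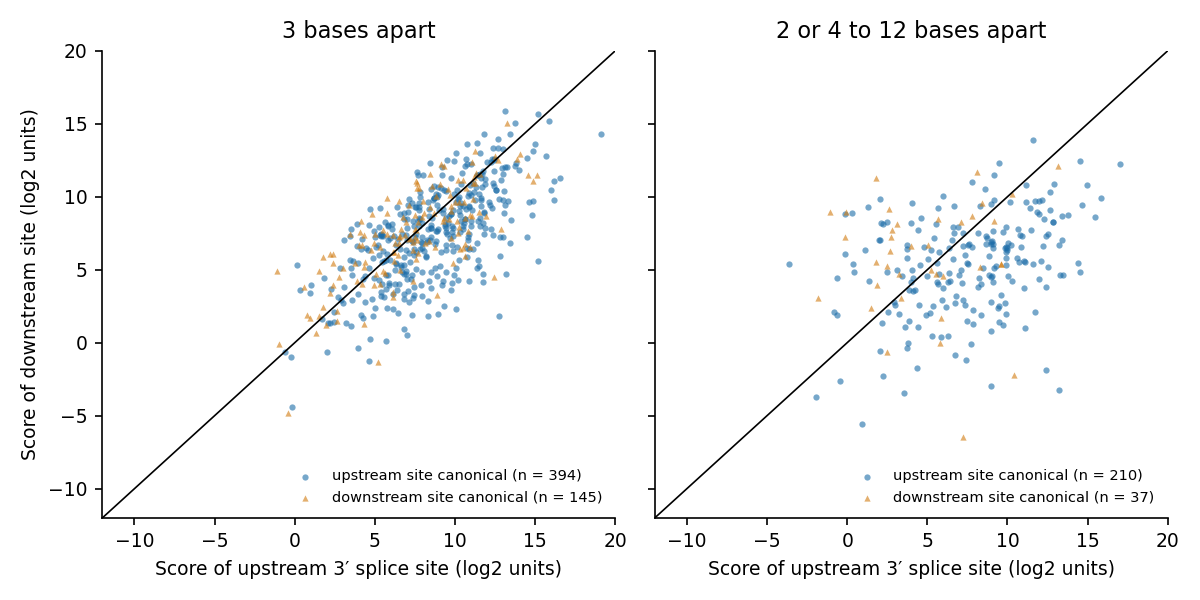
Score of the upstream (x axis) against the downstream (y axis) 3′SS, in log2 units, for distinct acceptor pairs with AG at both sites and the canonical transcript at 1 of them, 3 bases apart on the left and 2 or 4 to 12 bases apart on the right. Circles are pairs whose upstream site is used by the canonical transcript (394 and 210 pairs) and triangles those whose downstream site is (145 and 37). The line marks equal scores. The pairs on the left lie close to the line and those on the right scatter more widely. The score windows of a pair overlap more the closer its sites are, and the effect of this on the scatter was not tested.

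Within 3-base events the score difference varied with the combination of bases, which is part of the score. Upstream exceeded downstream by 4.85 ± 1.72 in CAGAAG and 3.54 ± 1.44 in TAGAAG events, and by 0.66 ± 1.90 in CAGCAG events. In TAGCAG events the upstream acceptor scored lower (-1.30 ± 1.69), as it did in AAGCAG events (-0.37 ± 1.75). The annotation did not follow the score in TAGCAG events. Their canonical transcript, the representative transcript of the annotation, used the upstream TAG in 120 of 157 events (76.4%, 69.2 to 82.4), against 199 of 277 (71.8%, 66.3 to 76.8) for CAGCAG and 49 of 60 (81.7%, 70.1 to 89.4) for CAGAAG. For AAGCAG it was 31 of 73 (42.5%, 31.8 to 53.9). Annotated use is a property of the annotation, compiled from many tissues, and not a measurement in HEK293T cells.

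The score difference of the other tandem events varied with their spacing. At 2 bases the upstream acceptor scored higher in 21 of 22 events with AG at both sites, by 2.85 ± 1.86 on average. Such pairs always read AGAG, so the downstream site always followed GAG, and the base before the AG is part of the score. At 4 or 5 bases it did so in 129 of 148 events (87.2%), by 3.12 ± 2.90. At 6 to 12 bases it did so in 74 of 153 events (48.4%), by 0.29 ± 5.39. At all these spacings the upstream AG lies inside the score window of the downstream site. The differences are therefore in part built into the score. The canonical transcript used the upstream site in 112 events and the downstream site in 18 at 4 or 5 bases (86.2% upstream), and in 121 and 37 at 6 to 12 bases (76.6% upstream). At 12 bases the division was nearly even, 17 against 15.

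The strongest pair at each of several spacings is shown.
TMEM128, 2 bases, chr4:4237976-4238005, minus strand: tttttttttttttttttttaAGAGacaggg
TMEM44-AS1, 4 bases, chr3:194309730-194309759, plus strand: tccttttttatttttttaAGacAGggtctt
NMB, 5 bases, chr15:85198630-85198659, minus strand: tctgtatgtttctcttcAGtacAGgaggct
NPAS3, 6 bases, chr14:33836374-33836403, plus strand: ctttctttttcttttaAGttatAGgtgcac
MGST1, 7 bases, chr12:16507148-16507177, plus strand: atttaaatctttttaAGattccAGaccaaa
C12orf4, 8 bases, chr12:4645372-4645401, minus strand: actgcttttttgttAGttctgtAGaaatcc
MVK, 9 bases, chr12:110012599-110012628, plus strand: ggctttcccttttAGgattcccAGgagcca
CCDC92, 10 bases, chr12:124428896-124428925, minus strand: catttcatcctcAGtatttttcAGtgctgt
ALAS1, 11 bases, chr3:52233213-52233242, plus strand: cactcttcatcAGtctttccacAGgagcca
PAPD4, 12 bases, chr5:78938643-78938672, plus strand: ttaacttttcAGtgtttttttcAGgtaaat

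TMEM128, a membrane protein, had AGAG at the end of a tract of T, in the 3′ UTR. NPAS3, a basic helix-loop-helix transcription factor of the brain, had acceptors 6 bases apart in coding sequence, with 8 transcripts at the upstream and 4 at the downstream site. MVK, mevalonate kinase of the isoprenoid pathway, had 7 and 1 transcripts at acceptors 9 bases apart in its 5′ UTR. ALAS1, the rate-limiting enzyme of haem synthesis in most tissues, had acceptors 11 bases apart in its 5′ UTR, with 2 transcripts at each. PAPD4, a cytoplasmic poly(A) polymerase, had 3 and 1 at acceptors 12 bases apart in coding sequence.

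Across all tandem events the annotation favoured the upstream site. The canonical transcript used it in 486 of 718 3-base events (67.7%, 64.2 to 71.0) and in 254 of 344 other tandem events (73.8%, 68.9 to 78.2), against 878 of 1806 events further apart (48.6%, 46.3 to 50.9). The differences from events further apart were 19.1 points (14.9 to 23.1) and 25.2 points (19.8 to 30.2). It used the downstream site in 197 3-base events (27.4%), 58 other tandem events (16.9%) and 631 events further apart (34.9%). The upstream site was thus also the more frequent choice in events further apart. Events with the canonical transcript at neither or both sites stay in the totals. They were more frequent among events further apart, which widens these differences. More annotated transcripts ended at the upstream acceptor in 58.1% (54.4 to 61.6) of 3-base events and 75.3% (70.5 to 79.6) of other tandem events. With the basic transcript set, the GENCODE subset of representative transcripts, these fell to 52.6% and 64.2%. Both acceptors were annotated in 909 of 1062 tandem events (85.6%, 83.4 to 87.6), against 92.0% of events further apart, a difference of -6.43 points (-8.96 to -4.04). In 132 tandem events only the upstream acceptor was annotated, in 21 only the downstream one, and in no event neither.

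Among 3-base events the canonical transcript used the site with the higher score in 403 of 679 (59.4%, 55.6 to 63.0). Where the scores differed by under 2 it did so in 197 of 370 events (53.2%, 48.2 to 58.3), from 2 to under 4 in 127 of 214 (59.3%, 52.7 to 65.7), and from 4 upward in 79 of 95 (83.2%, 74.4 to 89.4). In other tandem events the share over all gaps was 71.1% (65.7 to 76.0), and in events further apart 62.8% (60.4 to 65.2). In the same 679 3-base events the canonical transcript used the upstream site, whatever its score, in 486 (71.6%, 68.1 to 74.8).

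**Figure D3:**
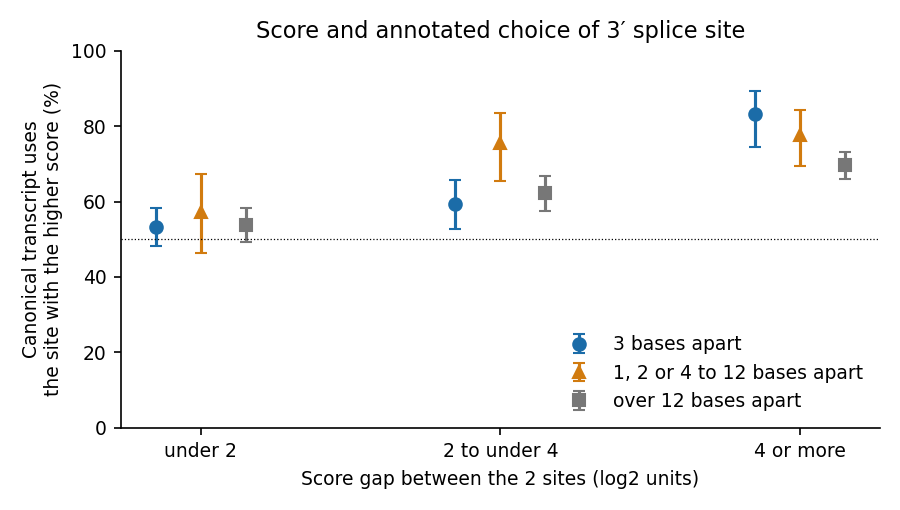
Share of events whose canonical transcript uses the acceptor with the higher score (y axis, percent), by the score gap between the 2 acceptors (x axis, log2 units), with 95% Wilson intervals. Circles are 3-base events, triangles other tandem events and squares events over 12 bases apart. The dotted line marks 50%. In 3-base events the share goes from 53.2% at the smallest gaps to 83.2% at the largest.

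The sequence before the pair was rich in pyrimidines. Over the 20 bases before the upstream site's last 2 intron bases, 75.5% ± 10.3 (SD over events) were C or T in 3-base events, 72.8% ± 11.97 in other tandem events and 71.6% ± 12.9 in events further apart. The 3-base events exceeded the events further apart by 3.90 points (2.94 to 4.86). The other tandem events exceeded them by 1.24 points, with an interval that held 0 (-0.16 to 2.63). The nearest AG upstream of the pair was a median of 30 bases away in 3-base events, 31 in other tandem events and 27 in events further apart. Introns before 3-base events had a median length of 1803 bases and those before other tandem events 1650, against 1291 for events further apart. The short form of the exon had medians of 137, 127 and 142 bases.

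**Figure D4:**
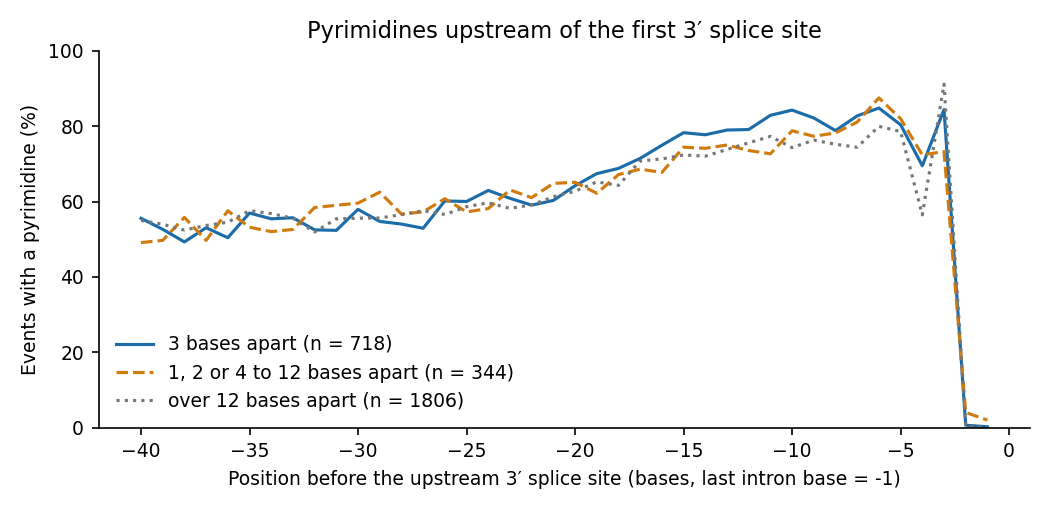
Share of events with C or T (y axis, percent) at each of the 40 positions before the upstream 3′SS (x axis, bases, the last intron base being -1). The solid line is 3-base events, the dashed line other tandem events and the dotted line events over 12 bases apart. The 3-base line lies highest from -15 to -7, and all lines drop at the AG.

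Most of the added bases were coding. They lay in coding sequence in 644 of 718 3-base events (89.7%, 87.3 to 91.7) and 281 of 344 other tandem events (81.7%, 77.3 to 85.4), against 80.8% (78.9 to 82.5) of events further apart. The 3-base events exceeded the events further apart by 8.91 points (5.90 to 11.7), and other tandem events did so by 0.90 points, with an interval that held 0 (-3.86 to 5.08). The 5′ UTR held 61 3-base events (8.50%) and 50 other tandem events (14.5%), and the 3′ UTR 3 and 4. Outside the 3-base events, the spacing was a multiple of 3 in 111 of 281 coding events (39.5%, 34.0 to 45.3) but in 9 of 63 that were not coding (14.3%, 7.70 to 24.97). The difference was 25.2 points (13.2 to 34.0). Events further apart showed 50.5% in coding and 33.1% in other sequence, a difference of 17.4 points (11.7 to 22.8).

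In the 638 coding 3-base events with AG at both acceptors, the junction fell between codons in 237 (37.1%, 33.5 to 41.0), after the first base of a codon in 287 (45.0%, 41.2 to 48.9) and after the second in 114 (17.9%, 15.1 to 21.0). Coding acceptors of canonical transcripts in the genome had 45.8%, 32.3% and 21.9% in the same order. The triplet TAG, a stop codon when read in frame, was the downstream triplet of no event whose junction fell between codons, of 24 after the first base and of 21 after the second. Of 644 coding 3-base events, 1 had a stop codon among the codons that hold added bases, in AFF1, a transcriptional elongation factor. There the junction fell after the second base of a codon, so the stop codon spanned the junction. The canonical transcript of AFF1 nevertheless used this upstream site, which had 2 annotated transcripts against 1 at the downstream site. Of 111 coding events 6, 9 or 12 bases apart, 1 had such a stop codon, in HECTD2, a ubiquitin ligase. Its 9-base upstream site was in no annotated transcript. Of 170 coding events with a spacing that was no multiple of 3, 7 had a stop within the added codons. Those 170 also shift the frame downstream, which was not followed further.

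**Figure D5:**
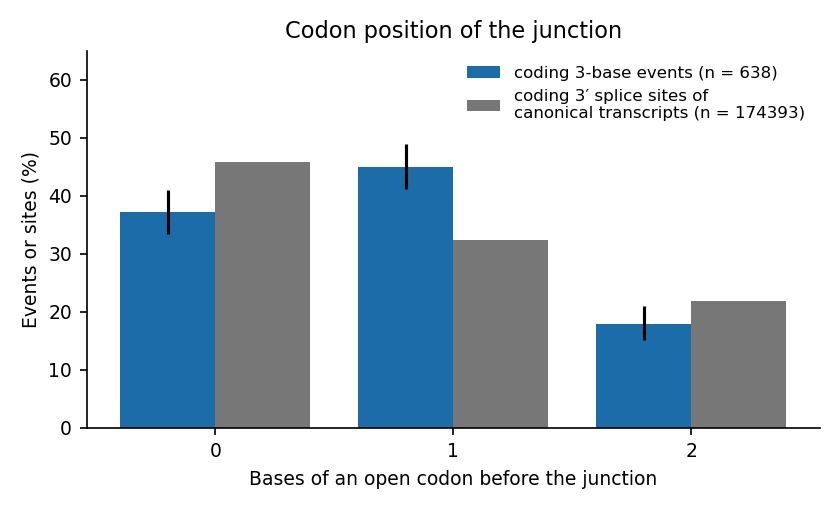
Share of coding 3-base events with AG at both sites (blue, with 95% Wilson intervals, n = 638) and of coding 3′SS of canonical transcripts (grey, n = 174393) by the number of bases of an open codon before the junction. The 3-base events have 45.0% after 1 base, against 32.3% of canonical sites.

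Genes that regulate splicing were examined as lists, counting genes with a tandem event among genes named in the alternative 3′SS or skipped exon lists. Over all genes this was 799 of 12093 (6.61%, 6.18 to 7.06). SR proteins and TRA2, which bind exonic enhancers, had 3 of 11 (SRSF10, SRSF11 and TRA2A). The CLK and SRPK kinases, which phosphorylate SR proteins, had 2 of 7 (CLK2 and SRPK3). The hnRNP and PTBP genes, most of them splicing repressors, had 2 of 24 (HNRNPR and PTBP2). The list of 3′SS factors, which also held SF3A and SF3B proteins, DHX helicases and second-step factors, had 1 of 29. This was PUF60, a partner of U2AF2 at the pyrimidine tract, with 15 annotated transcripts at the upstream and 5 at the downstream acceptor. Its window is not printed. The shares were 27.3% (9.75 to 56.6) for SR proteins and TRA2, 28.6% (8.22 to 64.1) for the kinases, 8.33% (2.32 to 25.8) for hnRNP and PTBP genes and 3.45% (0.611 to 17.2) for the 3′SS factors. They rest on 1 to 3 genes each, in lists chosen with results of these data known, and are given as a description.

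The windows of the other members of these lists follow.
SRSF10, 3 bases, chr1:24298108-24298137, minus strand: tttttctgatatgctttttAGcAGtagacc
SRSF11, 3 bases, chr1:70687274-70687303, plus strand: tgtgtgtttgatgtgttaaAGcAGgagcga
SRSF11, 3 bases, chr1:70716270-70716299, plus strand: ttattattctccttggcaaAGcAGgttaca
TRA2A, 3 bases, chr7:23545424-23545453, minus strand: gtaatctttcatttcttacAGaAGacgatc
CLK2, 3 bases, chr1:155238578-155238607, minus strand: accccccctgccccccgacAGcAGcacagc
SRPK3, 3 bases, chrX:153049186-153049215, plus strand: gggtgaccctggctctgacAGcAGaccggt
PTBP2, 3 bases, chr1:97278808-97278837, plus strand: aattttataattttgtttcAGaAGagatca
HNRNPR, 9 bases, chr1:23645176-23645205, minus strand: tatatctggctgtTGgtttaacAGagggtt

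SRSF10 had 6 transcripts at its TAG and 5 at its CAG. SRSF11 had a pair in its 5′ UTR (2 and 3 transcripts) and another before exon 12 (7 and 4), both AAGCAG. TRA2A had 5 transcripts at a CAG that scored 13.02 and 2 at an AAG that scored 7.21. PTBP2, the neuronal paralog of PTBP1, had 11 and 9, and its canonical transcript used the downstream AAG. SRPK3 and CLK2 had weak acceptors on both sides, scoring 1.67 and 1.63 in SRPK3 and 4.29 and 1.69 in CLK2. HNRNPR had a TG upstream, with 2 transcripts, and a CAG 9 bases downstream with 7.

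Among larger families, the ZNF zinc finger genes had a tandem event in 46 of 362 (12.7%, 9.66 to 16.5), 34 of them with a 3-base event. ZNF23 and ZNF227, whose windows are printed above, were the strongest TAGTAG and AAGAAG events of all. The SLC solute carriers had 13 of 245 (5.31%, 3.13 to 8.87), cytosolic ribosomal proteins 4 of 86 (RPL10, RPL11, RPL18 and RPS24), mitochondrial ribosomal protein symbols 6 of 73, DDX and DHX helicases 3 of 48, RBM symbols 3 of 43 and USP proteases 2 of 48. Families were taken by the start of the symbol, so that the mitochondrial list also holds MRPS30-DT, a non-coding transcript, and the RBM list RBMS3.

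In 26 of the 870 distinct pairs the upstream acceptor did not follow AG, and in 23 of these the downstream site did. The upstream site followed TG in 12 pairs, 11 of them annotated, AT in 4 and GG in 3. Some of the TG and GG pairs in genes of known function are shown.
SMARCA4, 9 bases, chr19:11151959-11151988, plus strand: attttactactatTGaccctgaAGgccatc
DLG4, 9 bases, chr17:7107372-7107401, minus strand: ttctgtcccgtgcTGgagttgcAGgtgaac
PCBP2, 12 bases, chr12:53856253-53856282, plus strand: ttttcccctcTGactctctcccAGtccccc
SRRT, 12 bases, chr7:100485651-100485680, plus strand: ctgtccgtgtTGtactccccccAGgtttga
RYK, 9 bases, chr3:133910813-133910842, minus strand: ggtttggctttgtTGgctccttAGgttatc
RBFOX2, 12 bases, chr22:36156062-36156091, minus strand: gtcatattttGGgtctccctttAGttcctg

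SMARCA4, the ATPase of the BAF chromatin remodelling complex, had 13 annotated transcripts at TG and 27 at the AAG 9 bases downstream. DLG4, the postsynaptic scaffold PSD-95, had 12 at TG and 10 at CAG, and its canonical transcript used the TG. PCBP2, a poly(C)-binding protein, had 9 at each site. SRRT, a factor of nuclear RNA processing, had 5 at TG and 2 at CAG. RYK, a Wnt receptor, had 1 and 2. RBFOX2, a splicing regulator that binds GCATG, had 5 transcripts at GG and 11 at TAG 12 bases downstream. These examples were picked after their sequences were seen.

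The exons with tandem acceptors were also often listed as skipped exons. The long or the short form was in the skipped exon list for 557 of 1062 tandem events (52.4%, 49.4 to 55.4), against 46.9% (44.6 to 49.2) of events further apart, a difference of 5.55 points (1.76 to 9.32). The 3-base events (52.1%) and the other tandem events (53.2%) differed by -1.11 points, with an interval that held 0 (-7.47 to 5.30). The intron before the pair was in the retained intron list for 8 tandem events (0.753%) and 43 of the events further apart (2.38%), a difference of -1.63 points (-2.52 to -0.68).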

How the data were processed

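PolyA+ RNA of HEK293T cells was sequenced by the authors as 126-bp paired-end reads, with 1 library per condition. Per the submitters' processing notes, reads were aligned to hg19/GRCh37 with STAR 2.5.1. Events were deposited as 5 rMATS lists, whose rMATS version is not given in the sources used here. The 30 columns of values per library (junction counts and inclusion levels) number the libraries without naming a condition and were not used. The 15 columns of the authors' own comparison (p-values, false discovery rates and inclusion differences) were not used either. Depth and the effect of amiloride are therefore not given. Effective form lengths differed by the spacing in all 2868 events (short form 125, long form 126 to 137 in tandem events).

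Coordinates were read against GRCh37 and GENCODE release 44 lifted to it, with Python 3.11.15, numpy 2.4.6 and pandas 2.3.3. The score used a pseudocount of 0.5 per base. The scored acceptors include those described. Canonical means the transcript so tagged by Ensembl. Added bases were called coding where an exon starting at either acceptor began in coding sequence in at least 1 annotated transcript. The score, intervals and stop search were tested on simulated data. Intervals are 95% and no tests were run. Of 1892 symbols, 1797 were current, 85 older and 10 unmatched. Members and lists were chosen with earlier results of these data known. Named were textbook and splicing-factor genes with a tandem event, and, for each base combination and spacing, the event outside chromosome 8 whose weaker acceptor scored highest. Sequence of chromosome 8 is not reported here.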

Additional observations from a re-analysis of the deposited data

How the results depend on the processing

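Of 33 alternatives over 12 results, 23 left the value within the 95% interval of the reported one and 10 moved it outside. No direction was reversed. A limit of 9 bases gave 34.7% of alternative 3′SS events as tandem and a limit of 15 bases 39.5%. Without the 3-base events, 34.9% of tandem spacings were a multiple of 3, against 78.9% with them. More annotated transcripts at the upstream acceptor were found in 52.6% of 3-base events with basic transcripts only and 53.2% with protein-coding transcripts only, and in 64.2% and 69.5% of other tandem events. The mean score difference (upstream minus downstream, all events) went from 0.60 to 1.31 in 3-base events with intron bases only, and from 0.43 to 1.76 in other tandem events with AG at both acceptors. With the long and the short exon both required in the skipped exon list, 48.8% of tandem events were listed. Some of these settings change the set that is counted. Other limits take in other spacings, and every 3-base spacing is a multiple of 3. Requiring AG at both acceptors leaves out low-scoring upstream sites (mean upstream score of other tandem events 5.95 with them, 7.31 without). The cause of the other moves was not tested. No paired analysis was possible because there is 1 library per condition, and no replicate could be left out. Counting error alone is covered by the intervals, listed events can share an acceptor pair, and the listing depends on the annotation given to the event caller.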
